A study of Mus musculus with 24 samples.

Results

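The serum amyloid A genes Saa1, Saa2, Saa3 and Saa4 were followed through mouse liver RNA. They are 4 of the 23240 rows of the deposited count table, found by symbol. All 4 had counts high enough for the test over all genes, which covered 13773 genes, and each of the 24 libraries gave a value for each of them. The family was selected because of its levels in these libraries. Its levels and fold changes between groups are therefore given as a description, with no test.

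Livers came from female NOD scid gamma (NSG) mice, an immunodeficient strain that lacks mature B, T and natural killer cells, with an age of 8 weeks in the labels. Doses were given by tail vein over 5 weeks, 2 each week, and the liver was collected 2 days after the last dose. The controls received phosphate-buffered saline (PBS). The other groups received about 10 µg per dose of extracellular vesicles (EVs, membrane particles shed by cells), labelled MCF10A EV, MCF10A/miR-122 EV or MDA-MB-231 EV, and each of the 4 groups had 6 libraries. MCF10A is a non-tumorigenic human breast epithelial line, and the names of its libraries carry the tag pBABE. MCF10A/miR-122 pairs that line with the microRNA miR-122, and MDA-MB-231 is a human breast cancer line. The labels do not say whether 1 or several EV preparations were used, or whether each library is 1 mouse.

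The names of 12 libraries go against their treatment labels. The 6 libraries labelled MCF10A/miR-122 EV carry the number of MDA-MB-231 in their names, and the 6 libraries labelled MDA-MB-231 EV carry the number of miR-122. Groups are called here by their label, and each statement on these 2 groups changes sides if the library names are right. Totals were 21.3 to 29.3 M counts (M, mega) in the PBS and MCF10A EV libraries and 26.8 to 33.7 M in the other 12, whose library numbers follow. The serpin gene Serpina3a had 109.6 to 325 CPM (counts in every 1 M counts of a library, the scale of all levels here) in the first 12 of them and 0.285 to 5.85 CPM in the last 12. Group and set cannot be told apart when the last 2 groups are compared with PBS. MCF10A EV against PBS, and MDA-MB-231 EV against MCF10A/miR-122 EV, each lie within 1 set. The 12 hepatocyte markers were present in every library, and the 7 B and T cell markers summed to at most 2.38 CPM.

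Serum amyloid A proteins are small apolipoproteins that travel on high-density lipoprotein (HDL). In the mouse, Saa1 and Saa2 are major acute phase proteins of the hepatocyte: interleukin-1, interleukin-6 and tumour necrosis factor raise their transcription through NF-kB, C/EBP and STAT3. Saa3 is best known from macrophages, adipocytes and epithelia and is also induced in liver by inflammation. Saa4 is the constitutive member, made by the liver with little response to inflammation.

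The genes lie together on chromosome 7 in the order Saa3, Saa4, Saa1, Saa2, with a pseudogene between Saa4 and Saa1, between the neighbours Saal1 and Hps5. The 250 bases before each start site are shown because 3 members moved together and Saa4 had another pattern. They are from RefSeq (GRCm38.p6), 5′ to 3′ on the strand of the gene. Saa1 is at chr7:46742981-46743230 (minus strand), Saa2 at chr7:46751583-46751832 (plus strand), Saa3 at chr7:46715677-46715926 (minus strand) and Saa4 at chr7:46732604-46732853 (minus strand). Capitals mark matches to the C/EBP core TTGCNNAA on either strand.
Saa1: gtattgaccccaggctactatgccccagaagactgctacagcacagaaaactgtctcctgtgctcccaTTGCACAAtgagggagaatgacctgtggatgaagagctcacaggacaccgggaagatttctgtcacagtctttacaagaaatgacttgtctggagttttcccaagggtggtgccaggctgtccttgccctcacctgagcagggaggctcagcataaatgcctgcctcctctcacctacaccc
Saa2: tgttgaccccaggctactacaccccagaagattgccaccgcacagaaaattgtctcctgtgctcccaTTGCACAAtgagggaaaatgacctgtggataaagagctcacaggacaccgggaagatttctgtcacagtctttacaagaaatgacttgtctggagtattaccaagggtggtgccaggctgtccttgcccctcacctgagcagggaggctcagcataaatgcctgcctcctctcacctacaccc
Saa3: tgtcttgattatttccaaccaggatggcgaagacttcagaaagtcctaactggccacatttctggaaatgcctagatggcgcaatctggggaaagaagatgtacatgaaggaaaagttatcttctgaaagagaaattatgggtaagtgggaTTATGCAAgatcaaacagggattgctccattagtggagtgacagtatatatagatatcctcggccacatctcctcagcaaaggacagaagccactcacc
Saa4: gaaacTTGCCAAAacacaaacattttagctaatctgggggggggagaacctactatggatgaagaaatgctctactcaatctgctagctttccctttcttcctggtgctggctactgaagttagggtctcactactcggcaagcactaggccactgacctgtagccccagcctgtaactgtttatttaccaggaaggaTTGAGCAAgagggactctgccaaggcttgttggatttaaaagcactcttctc

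Over 300 bases (250 before to 50 after the start), the Saa1 and Saa2 promoters were identical at 287 of 299 aligned bases (96.0%), while all other pairs had 43.4% to 50.3% identity. Each of the 4 windows held the C/EBP letters. The match began 182 bases before the start in Saa1, 183 before in Saa2 and 99 before in Saa3, where it lies on the opposite strand. Saa4 held 2 matches, from 245 and from 52 bases before the start. Of 32851 mouse promoters of this length, 10.8% held such a match. None of the 4 windows held TATAAA (13.6% of promoters), the STAT letters TTCNNNGAA (8.30%) or the strict NF-kB consensus (8.46%), all searched on both strands. The C/EBP letters were thus found in Saa4 as well as in the 3 members with large differences between groups, and a match is not evidence of binding.

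Saa1, Saa2 and Saa3 stood far higher in each library labelled MCF10A/miR-122 EV than in any library of another group, while Saa4 was at a similar level in both of the last groups. Values are CPM on library sizes scaled by the trimmed mean of M values (TMM), given as mean ± SD of 6 libraries unless stated.

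Saa1, the larger of the 2 hepatocyte acute phase genes by counts, was at 339, 689, 540, 824, 440 and 563 CPM in replicates 1 to 6 of the group labelled MCF10A/miR-122 EV. In livers labelled MDA-MB-231 EV it was at 35.3, 33.3, 80.6, 26.2, 23.2 and 32.8 CPM. In the MCF10A EV group it was at 53.7, 34.7, 35.5, 39.1, 25.4 and 48.0 CPM. In PBS livers it was at 24.3, 16.2, 49.9, 28.3, 23.9 and 19.0 CPM. The lowest library of the high group was 4.21 times the highest of the other 18, which was MDA-MB-231 EV replicate 3, and the other 3 groups overlapped one another. Mean levels were 566 ± 173 CPM against 26.9 ± 12 CPM in PBS, 39.4 ± 10.1 CPM with MCF10A EV and 38.6 ± 21.1 CPM in livers labelled MDA-MB-231 EV. The ratio of means was 21 to PBS and 14.7 to livers labelled MDA-MB-231 EV, and the fitted log2 fold changes were 4.39 (SE 0.32) and 3.87 (SE 0.31) in favour of MCF10A/miR-122 EV. Against PBS the 2 lower EV groups had log2 fold changes of 0.55 (SE 0.28) for MCF10A EV and 0.52 (SE 0.28) for MDA-MB-231 EV, both with overlapping libraries.

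Saa2, its neighbour on the opposite strand and near-copy, had the same pattern at a lower level. The high group spanned 189.8 to 561 CPM with a median of 331. The medians were 15.2 CPM in PBS (8.89 to 44.8), 21.7 CPM with MCF10A EV (15.4 to 31.5) and 18.9 CPM in livers labelled MDA-MB-231 EV (12.1 to 56.8). All 6 libraries of the high group lay above the other 18, by a factor of 3.34 at the nearest pair, and the other 3 groups overlapped. The log2 fold change was 4.25 (SE 0.42) over PBS.

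Saa3 was scarce outside that group. It stayed between 2.79 and 5.75 CPM (79 to 156 counts) in all 18 other libraries, with medians of 3.88 CPM in PBS, 3.78 CPM with MCF10A EV and 4.13 CPM in livers labelled MDA-MB-231 EV. In the high group it was at 25.7, 97.1, 67.4, 112, 54.7 and 45.5 CPM in replicates 1 to 6 (792 to 3364 counts). The nearest pair of libraries differed by a factor of 4.48, and the log2 fold change over PBS was 4.04 (SE 0.27). The 3 lower groups overlapped for Saa3, with log2 fold changes of -0.09 (SE 0.27) for MCF10A EV and -0.00 (SE 0.27) for MDA-MB-231 EV against PBS.

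Over all genes, 16 of 13773 (0.116%) had every library labelled MCF10A/miR-122 EV above the other 18, and Saa1, Saa2 and Saa3 are 3 of these 16. As the family was selected on this contrast, nothing is read from that share. At their nearest pair of libraries the other 13 genes had factors of 1.00 to 1.97. The last was the predicted gene Gm10684, named here after its value was seen, and next to it stood Amica1 at 1.73, the gene of a junctional adhesion molecule of leukocytes.

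Saa4 had another pattern. It was at 137 to 174 CPM in PBS livers, 174 to 229 CPM with MCF10A EV, 219.9 to 290.3 CPM in the group labelled MCF10A/miR-122 EV and 194 to 282 CPM in livers labelled MDA-MB-231 EV. All 18 libraries of the EV groups lay above the highest PBS library, the lowest MCF10A EV library only just so at 174.3 against 173.7 CPM. The last 2 groups overlapped, with means of 243.0 ± 25.4 and 236.9 ± 31.6 CPM. Of all genes tested, 0.414% had all 6 MCF10A EV libraries above all 6 PBS libraries, 2.4% had all 6 libraries labelled MCF10A/miR-122 EV above them and 2.98% had all 6 labelled MDA-MB-231 EV above them. Log2 fold changes over PBS were 0.27 (SE 0.09) for MCF10A EV, 0.61 (SE 0.09) for MCF10A/miR-122 EV and 0.58 (SE 0.09) for MDA-MB-231 EV. Saa4 also varied least within groups, with a coefficient of variation of 7.81% to 13.3%, where those of Saa1, Saa2 and Saa3 ran from 20.2% to 70.6%.

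**Figure D1:**
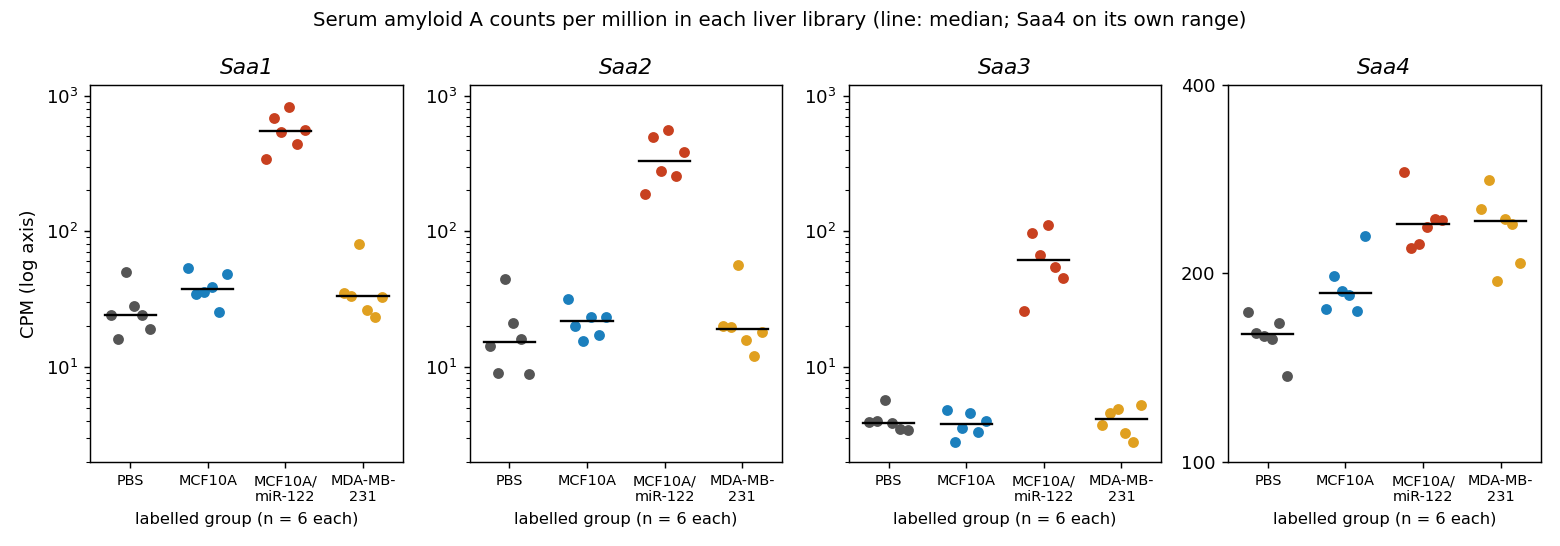
CPM of Saa1, Saa2, Saa3 and Saa4 in each library (points) of the 4 labelled groups, on log axes, with lines at group medians and a narrower axis for Saa4. The 6 libraries labelled MCF10A/miR-122 EV stand apart for Saa1, Saa2 and Saa3 (lowest values 339, 189.8 and 25.7 CPM), while Saa4 spans 137 to 290.3 CPM over all 24.

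Dividing CPM by transcript length (609, 606, 555 and 2094 bases for Saa1 to Saa4, GENCODE M21) allows a rough comparison of levels between genes. These lengths include sequence shared with other genes: 28.9%, 22.7%, 7.37% and 1.53% of the 32-base stretches of Saa1 to Saa4. How reads from such sequence were counted is not given, and its effect on the order and shares below was not tested. Per kilobase, Saa4 was the most abundant member in PBS livers at 75.9 ± 5.93, ahead of Saa1 at 44.2 ± 19.7, Saa2 at 31.4 ± 22.2 and Saa3 at 7.32 ± 1.54. The order was the same with MCF10A EV and in livers labelled MDA-MB-231 EV, although in all 3 groups the libraries of Saa1 overlapped those of both Saa4 and Saa2. In the group labelled MCF10A/miR-122 EV the order became Saa1 at 929 ± 284, Saa2 at 596 ± 240, Saa3 at 121 ± 58.2 and Saa4 at 116 ± 12.1, the last pair within its spread. Saa4 made up 50.1% ± 10.4 of the family per kilobase in PBS livers, 46.5% ± 5.83 with MCF10A EV and 53.2% ± 13 in livers labelled MDA-MB-231 EV. It made up 7.36% ± 3.22 in the group labelled MCF10A/miR-122 EV. Saa3 has a second annotated transcript of 2200 bases, and on that length its level in the high group would be 30.4 CPM per kilobase. In sum the family held 0.0879% to 0.162% of all counts in the high group and 0.0177% to 0.0328% in every other library.

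Proportions among the 3 inducible genes overlapped between all 4 groups. The ratio of Saa1 to Saa2 counts was 1.6 ± 0.36 in PBS, 1.83 ± 0.30 with MCF10A EV, 1.63 ± 0.22 in the group labelled MCF10A/miR-122 EV and 1.71 ± 0.17 in livers labelled MDA-MB-231 EV. Saa3 made up 9.12% ± 2.84 of the 3 genes' counts in PBS, 6.02% ± 0.96 with MCF10A EV, 6.52% ± 1.49 in the high group and 6.92% ± 1.98 in livers labelled MDA-MB-231 EV.

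**Figure D2:**
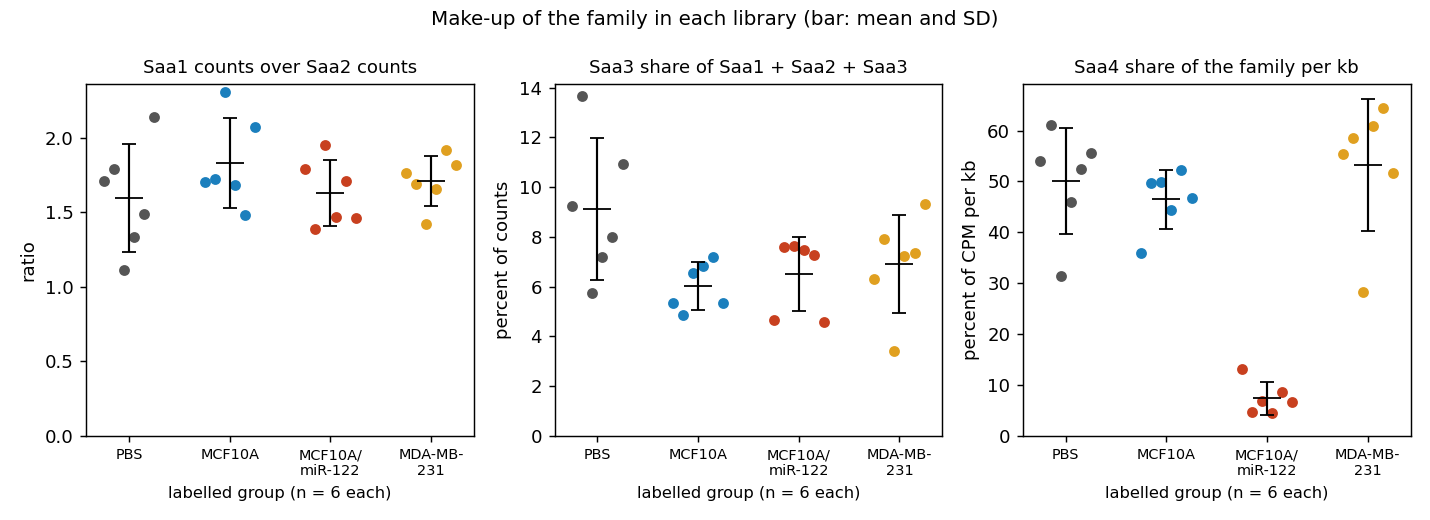
Ratio of Saa1 to Saa2 counts, Saa3 as a percentage of Saa1, Saa2 and Saa3 counts, and Saa4 as a percentage of family CPM per kilobase, by library (points) and labelled group, with mean and SD. The first pair of quantities overlaps across groups, while the mean Saa4 share is 7.36% in the group labelled MCF10A/miR-122 EV and 46.5% to 53.2% elsewhere.

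Reads of these genes are partly interchangeable. Of the 32-base stretches of the Saa1 transcript, 25.6% also occur in Saa2 and 4.67% in Saa3, while Saa4 shares none with the other members. Counting all genes, 7.37% of the Saa3 stretches and 1.53% of the Saa4 stretches occur in another gene. The genes outside the family that share them number 1605 for Saa3 and 1382 for Saa4. RefSeq lists Saa1 and Saa2 as synonyms of each other, so which of them each symbol of the table means is uncertain. Their sum does not depend on this, and was 927 ± 316 CPM in the high group against 46.0 ± 25.4 CPM in PBS, 61.2 ± 15.3 CPM with MCF10A EV and 62.3 ± 37.5 CPM in livers labelled MDA-MB-231 EV. The part of shared reads in the Saa3 counts was not tested.

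Within groups, the 3 inducible genes rose and fell together from library to library. Group means were subtracted from log2 CPM (prior count 2), and the deviations of the 24 libraries were correlated for the 6 pairs of genes, with two-sided permutations within groups and Benjamini-Hochberg adjustment over the 6 pairs. Saa1 and Saa2 had r = 0.96 and rho = 0.94 (permutation p = 1e-05 for each, the smallest the 100000 permutations can give, adjusted p = 6e-05), and r was 0.92 without the 2 libraries farthest from the median. The part of their shared sequence in this r was not tested. Saa3 also shares sequence with both (4.67% of the 32-base stretches of Saa1 and 1.48% of those of Saa2). The part of that sharing in the r of Saa3 with each, given next, was not tested either. Saa1 and Saa3 had r = 0.69 and rho = 0.71 (permutation p = 4e-05 and 0.00038, adjusted 0.00012 and 0.00114; r = 0.73 without 2 libraries). Saa2 and Saa3 had r = 0.65 and rho = 0.63 (permutation p = 0.00014 and 0.00251, adjusted 0.00028 and 0.00502; r = 0.67 without 2 libraries). Each of these pairs had a positive r in each of the 4 groups. In PBS, where replicate 3 stood far above the others, rho was lower than r. There it was 0.37 against r = 0.81 for Saa1 and Saa3, and 0.49 against r = 0.80 for Saa2 and Saa3.

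No pair with Saa4 passed the threshold. Its r with Saa1 was -0.29 (rho -0.28, permutation p = 0.221 and 0.205, adjusted 0.227 and 0.246) and with Saa2 -0.28 (rho -0.20, permutation p = 0.227 and 0.368, adjusted 0.227 and 0.368). With Saa3 it was -0.42 (rho -0.44, permutation p = 0.0487 and 0.0458, adjusted 0.0731 and 0.0688), which did not pass after adjustment, and r was -0.28 without MCF10A/miR-122 EV replicates 1 and 4. Replicate 1 of that group had the lowest Saa1, Saa2 and Saa3 of its 6 libraries and the highest Saa4, at 290.3 CPM. In that group alone, r of Saa4 with Saa1, Saa2 and Saa3 was -0.75, -0.66 and -0.84, without a test. In the same order r was 0.20, 0.28 and 0.21 in PBS and 0.35, 0.02 and -0.14 with MCF10A EV. In livers labelled MDA-MB-231 EV it was -0.60, -0.58 and -0.41.

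**Figure D3:**
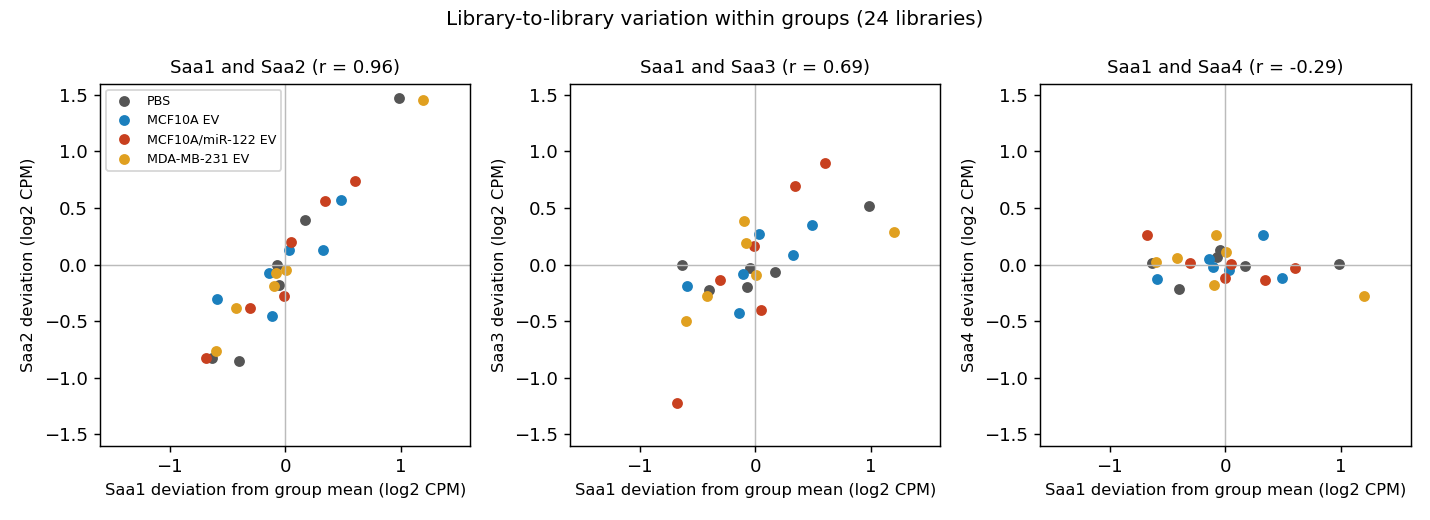
Deviation of each of the 24 libraries from the mean of its labelled group in log2 CPM, Saa1 on the x axis against Saa2, Saa3 and Saa4 on the y axis. Points follow a rising line for Saa2 (r = 0.96) and Saa3 (r = 0.69), and Saa4 stays near 0 (r = -0.29).

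Genes that act around serum amyloid A were then counted from 8 lists: cytokine ligands, their receptors and signalling, transcription factors of these genes, other positive and negative acute phase proteins, HDL proteins, serum amyloid A receptors and chromosomal neighbours. Of 135 listed genes, 121 were tested. A gene was called at an adjusted p under 0.05 in edgeR's quasi-likelihood test over all 13773 genes. Values in parentheses are log2 fold changes.

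Livers labelled MDA-MB-231 EV differed from that labelled MCF10A/miR-122 EV in 2 of the 121 genes (1.65%), both lower, against 0.254% of all genes (0.0436% higher and 0.211% lower). Both are positive acute phase proteins, and they are the 2 called of 28 in that list. Lcn2, which encodes the siderophore-binding protein lipocalin 2, was at 8.41 to 20.2 CPM in the first group and 23.0 to 50.7 CPM in the second, with no overlap (-1.49, SE 0.22, edgeR adjusted p = 0.00122). Orm2, an orosomucoid gene, was at 137.7 ± 36.7 against 275.8 ± 78.2 CPM (-1.0, SE 0.19, edgeR adjusted p = 0.0181). Orm2 lost its call without MCF10A/miR-122 EV replicate 3, without MDA-MB-231 EV replicate 5 (adjusted p = 0.0643) and when only these 12 libraries were fitted (adjusted p = 0.068). No gene of the other 7 lists was called in this comparison, and the median log2 fold change of the 121 genes was -0.03 against 0.00 for all genes. At an unadjusted p under 0.05 there were 8 genes in the acute phase list, and DESeq2 called 5 of the 121 in all: Lcn2, Orm2, Hp, Hpx and the metallothionein gene Mt2. The contrast in which Saa1, Saa2 and Saa3 differed 14.7-fold to 16.5-fold thus had called differences in 2 other acute phase genes, whose means stood at 0.355 (Lcn2) and 0.499 (Orm2) of those in the higher group.

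The cytokines Il6, Tnf, Lif, Osm, Il11 and Il22 had 0 to 6 counts in each library, so no difference in them was detectable at this depth. Il1a and Il1b, which encode interleukin-1 alpha and beta, were measured at 2.10 to 5.71 and 0.587 to 3.57 CPM over the 24 libraries.

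MCF10A EV against PBS gave 7 called genes of 121 (5.79%, 5 higher and 2 lower) against 1.07% of all genes. Lrg1, a leucine-rich plasma glycoprotein gene (0.82), Hp, which encodes haptoglobin (0.64), Itih3, an inter-alpha-trypsin inhibitor heavy chain gene (0.41), and Lcn2 (1.23) rose, as 4 of 28 positive acute phase genes (0.37% of all genes were called higher). Il1r1, the interleukin-1 receptor gene, rose from 23.9 ± 3.63 to 43.4 ± 11.3 CPM (0.86, SE 0.17, edgeR adjusted p = 0.0152), and lost its call without PBS replicate 3 (adjusted p = 0.0561). Cd36, a scavenger receptor (-0.91), and Tlr2, a pattern recognition receptor (-0.76), both receptors for serum amyloid A, fell with edgeR adjusted p = 0.0255 and 0.0443, but these calls were kept in only 6 and 3 of the 12 fits that left out 1 library, and both were lost without PBS replicate 3 (adjusted p = 0.0817 and 0.125). They are 2 of 10 receptor genes, and 0.697% of all genes were called lower. Saa1 in the same livers was 1.46 times the PBS mean with overlapping libraries.

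The group labelled MCF10A/miR-122 EV had 23 called genes of 121 against PBS (19.0%, 20 higher and 3 lower), near the 17.9% of all genes, a comparison across both sets of libraries. Livers labelled MDA-MB-231 EV had 18 (14.9%, 15 higher and 3 lower), against 11.7% of all genes. These 2 comparisons share the PBS livers, and their values are set side by side. With each of 12 libraries left out in turn, 18 of the 23 calls and 10 of the 18 were kept throughout. Those not kept throughout were Alb, Apoe, F12, Fetub and Rbp4 in the first and Cebpa, Cebpb, Gc, Il1a, Il1rap, Il6ra, Lrg1 and Orm1 in the second. Il1r1 was at 65.0 ± 15.2 and 51.8 ± 11.4 CPM against 23.9 ± 3.63 CPM in PBS, a log2 fold change of 1.44 and 1.11. The interleukin-6 receptor gene Il6ra (1.05 and 0.76) and the tumour necrosis factor receptor gene Tnfrsf1b (1.40 and 0.96) also rose in both. Il1rap, the gene of the interleukin-1 receptor's accessory chain, rose in the second (0.36). With Il1r1, these were 3 and 4 of 21 tested receptor and signalling genes, where 8.35% and 5.33% of all genes were called higher. Of 7 cytokine genes tested, Il18 rose in both (0.42 and 0.39) and Il1a fell in the second (-0.53). Of 18 transcription factor genes, 3 rose in each comparison: Cebpb (1.48 and 0.82) and Cebpd (1.01 and 0.77), which encode the C/EBP factors of the acute phase, and Nfkbia, which encodes an inhibitor of NF-kB (0.73 and 0.72). Sp1 fell in both (-0.35 and -0.41), with Nfkb1 (-0.30) and Nfkbie (-0.38) in the first and Cebpa (-0.37) in the second. Beside these transcription factor counts, 8.35% and 5.33% of all genes were called higher and 9.53% and 6.34% lower. Between the last 2 groups themselves, Cebpb differed by -0.65 (SE 0.25, edgeR adjusted p = 0.414) and Il1r1 by -0.33 (SE 0.16, edgeR adjusted p = 0.636), so neither difference passed.

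Among positive acute phase genes, 7 of 28 rose against PBS in the group labelled MCF10A/miR-122 EV and 4 of 28 in livers labelled MDA-MB-231 EV, where 8.35% and 5.33% of all genes were called higher. In the first these were Lcn2 (1.92), Orm2 (1.34), Hp (0.86), Orm1 (0.71), Hpx, the heme carrier hemopexin (0.61), Lrg1 (0.44) and Cfb, complement factor B (0.33). In the second they were Hp (0.49), Apcs, serum amyloid P (0.49), Lrg1 (0.45) and Orm1 (0.45). Of 11 genes listed as negative acute phase proteins, 4 rose in the first: Rbp4, Fetub, F12 and Alb (0.18 to 0.35). In the second 2 of the 11 rose, Fetub and Gc (0.39 and 0.22). The median log2 fold change of this list was 0.18 and 0.19, against 0.16 and 0.09 for the positive list. Among HDL genes 1 of 18 rose in each, near those shares of all genes: Apoe (0.26) and the paraoxonase gene Pon1 (0.30). Of 10 receptor genes, P2rx7 (0.55) rose in the first and none was called in the second.

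Of 8 tested genes near the cluster on the chromosome, 0 were called in edgeR in each of the 4 comparisons, with 1 to 3 at an unadjusted p under 0.05. Of all genes 0.254%, 1.07%, 17.9% and 11.7% were called in these comparisons, so few or no calls among 8 genes say little about the neighbours. DESeq2 called 1, Spty2d1, in MCF10A/miR-122 EV against PBS. Saal1, the gene next to Saa3, was at 3.25 to 4.50 CPM in the group labelled MCF10A/miR-122 EV and 3.53 to 4.44 CPM in PBS. Hps5, next to Saa2, was at 15.9 to 22.3 and 15.6 to 18.8 CPM.

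**Figure D4:**
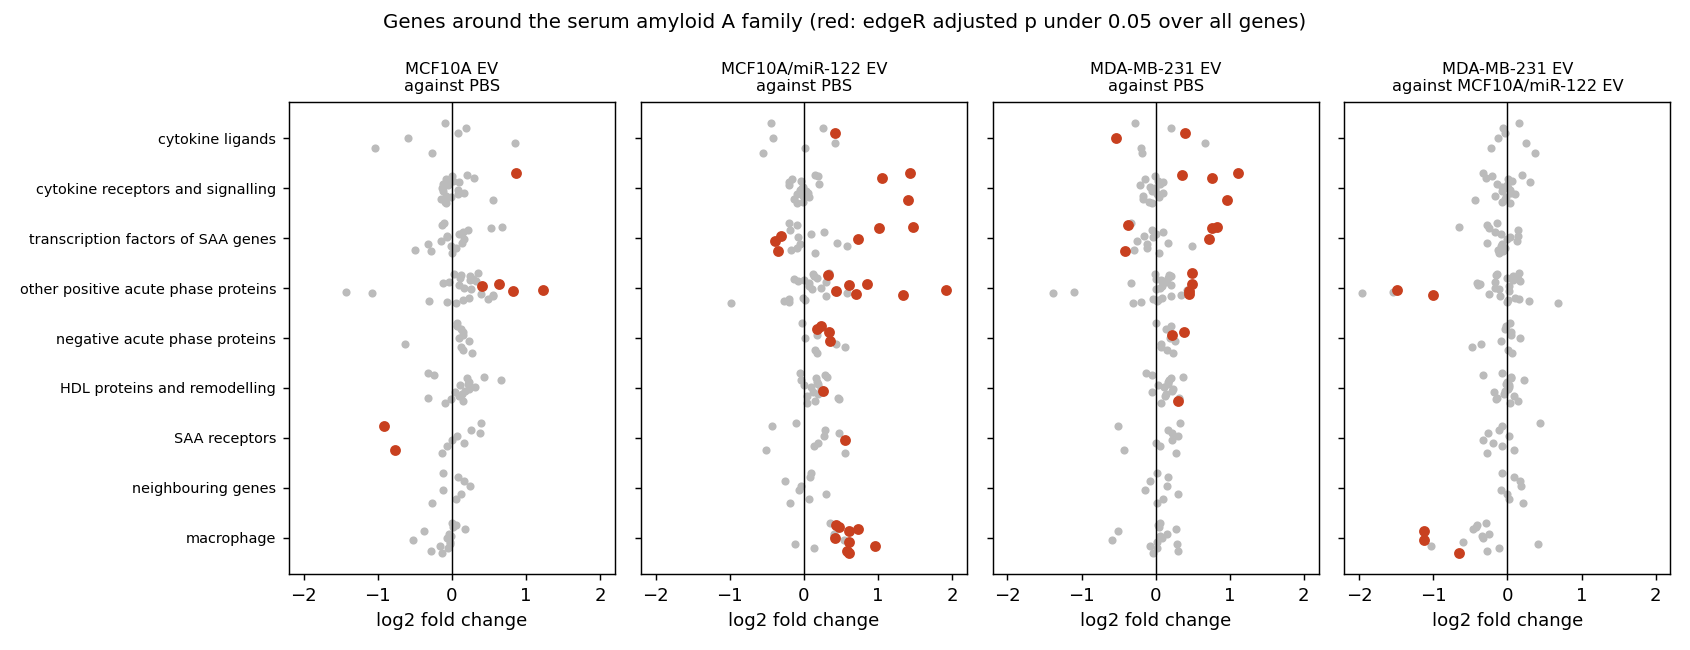
Log2 fold change (x axis) of each tested gene (points) of the 8 lists and of the macrophage markers, in 4 comparisons; red points passed an edgeR adjusted p of 0.05 over all genes. In MDA-MB-231 EV against MCF10A/miR-122 EV only Lcn2, Orm2 and 3 macrophage markers are red, and the neighbouring genes have no red point in any comparison.

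Saa3 is also made by macrophages, so the markers of other cell types are given beside it. The 15 macrophage genes measured were summed: 414 to 533 CPM in PBS, 422 to 477 CPM with MCF10A EV, 457 to 948 CPM in the group labelled MCF10A/miR-122 EV and 389.6 to 551 CPM in livers labelled MDA-MB-231 EV. Of these genes, 9 were higher in the group labelled MCF10A/miR-122 EV than in PBS (8.35% of all genes were called higher), and Cd5l (-1.12), Vsig4 (-0.65) and Emr1 (-1.13) were lower in livers labelled MDA-MB-231 EV than in that group (0.211% of all genes). Of the 9 calls 4 were kept with each library left out, and of the 3 calls 0. At an unadjusted p under 0.05 there were 13 and 11 of the 15 genes in these 2 comparisons, and DESeq2 called 11 and 5. The median log2 fold change of the 15 was 0.47 and -0.41. The 2 libraries of the high group with the lowest sums, replicates 4 and 5 at 457 and 461 CPM, lay within the PBS range and had 112 and 54.7 CPM of Saa3 and 824 and 440 CPM of Saa1. Replicate 3, with the highest sum of 948 CPM, had 67.4 CPM of Saa3. Replicates 1, 2 and 6 had sums of 658, 566 and 639 CPM and 25.7, 97.1 and 45.5 CPM of Saa3. The part of macrophages in these Saa3 levels was not tested. Neutrophil markers summed to 1.56 to 8.75 CPM over all libraries. Of 4 tested, 0 were called in any comparison by edgeR or DESeq2, and 0 had an unadjusted p under 0.05. The adipocyte genes Adipoq, Plin1, Lep, Retn and Cfd did not reach the test. The tested adipocyte genes Cidec and Pparg and the 6 tested cholangiocyte genes had no edgeR call in any comparison. Stab1 (1 of 9 endothelial genes) and Hand2 (1 of 10 stellate and fibroblast genes) were called higher in MCF10A/miR-122 EV against PBS. Beside these, 8.35% of all genes were called higher there. No gene of these 2 lists was called in another comparison. In whole liver, a change in the number of cells and a change in RNA per cell cannot be told apart.

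The genes most like the mean of z-scored Saa1, Saa2 and Saa3 over all 24 libraries were ranked among 10357 genes. Among the first 8 were Nudt19, a nudix hydrolase gene (r = 0.87), Hpx (0.83), BC023829 (0.83), Amica1 (0.81), Orm2 (0.80), Lcn2 (0.78) and Atp1b1, a sodium pump subunit gene (0.78). The ninth gene had r = 0.77. Such an r includes the gap between 1 group and the others, and no test is attached to it. Within groups, r of the deviations was 0.62 for Lcn2, 0.55 for Hpx and 0.41 for Orm2, ranks 10, 47 and 375 of the 10357 genes. Rank 100 had r = 0.51. The r was 0.23 for Nudt19, 0.17 for BC023829, -0.12 for Atp1b1 and -0.46 for Amica1. Single groups differed from these values. In PBS, r was 0.07 for Lcn2, 0.94 for Hpx, -0.23 for Orm2 and 0.91 for Atp1b1. In the group labelled MCF10A/miR-122 EV it was 0.94, 0.44, 0.74 and -0.98 in that order. Nudt19 was at 24.7 ± 3.09 CPM in PBS and 42.5 ± 4.5 CPM in the high group, and Amica1 at 0.530 ± 0.15 and 7.44 ± 5.69 CPM.

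Amica1 shared the group pattern without the library pattern. Its r with the score was -0.60 in the group labelled MCF10A/miR-122 EV and -0.79 in livers labelled MDA-MB-231 EV. It was -0.37 with MCF10A EV and 0.13 in PBS. Its level was 17.9 CPM in MCF10A/miR-122 EV replicate 1, which had the least Saa1 of the group, and 2.74 CPM in replicate 4, which had the most. BC018473, another gene high in that group, was at 14.1 and 4.59 CPM in the same 2 libraries and highest in replicate 3 at 16.6 CPM. Its r of deviations within groups was -0.36, and -0.76 in the group labelled MCF10A/miR-122 EV alone. Kcna2, a potassium channel gene, was highest in replicate 3 at 6.57 CPM and lowest in replicate 5 at 2.40 CPM, and its r of deviations within groups was 0.08. Lcn2 was at 23.0 and 50.7 CPM in replicates 1 and 4. By deviations within groups alone, the leading genes were Gramd3 (r = 0.77), Mrpl48, a mitochondrial ribosomal protein gene (0.69), Gjb1, which encodes the hepatocyte gap junction protein connexin 32 (0.68), Lamb3, a laminin chain gene (0.65), and Copz2, a coatomer subunit gene (0.64). Their r over all 24 libraries with the group differences included was -0.56 to 0.04.

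**Figure D5:**
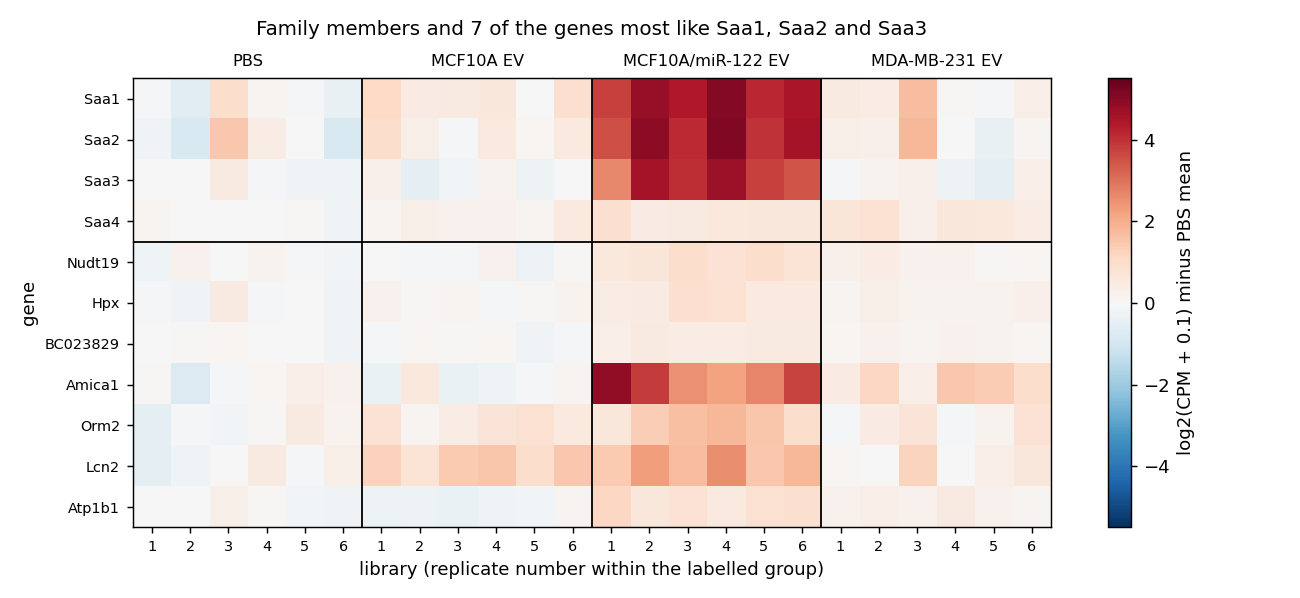
Log2(CPM + 0.1) minus the PBS mean (colour) for the 4 family members and 7 of the genes most like Saa1, Saa2 and Saa3, in each library of the 4 labelled groups. Saa1, Saa2 and Saa3 form a dark block in the group labelled MCF10A/miR-122 EV, where Amica1 is darkest in replicate 1 (17.9 CPM) and Saa1, Saa2 and Saa3 are lightest.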

How the data were processed

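Per the labels' protocols, TRIZOL RNA of mouse liver was sequenced in 24 libraries with a strand-specific mRNA kit. The authors deposited 1 table of raw counts, whole numbers for each gene symbol. The submitters' processing notes name bcl2fastq 2.18.0.12, TopHat2 and the build mm9. How reads were counted (tool, annotation, strand) is not given in the sources used here. Totals were 21.3 to 33.7 M (mega) counts per library, which left 79 or more counts for each family member. Rows that shared a symbol (27 rows, 0.0744% of counts) were left out.

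Groups follow the treatment labels. Each library was taken as 1 mouse, which the labels do not state. If some share a mouse or a preparation, p-values measure only the spread between these samples. edgeR 4.0.16 in R 4.3.3 was fitted to all 24 libraries with TMM scaling, the filterByExpr filter and a quasi-likelihood test, two-sided, with Benjamini-Hochberg adjustment over 13773 genes and a threshold of 0.05. SE came from the F statistic. The script was tested on simulated data. DESeq2 1.42.0 and limma 3.58.1 (voom), other scalings and filters, each library left out, the replicate block and the identities of the library names were alternatives. Members and gene lists were chosen with earlier results of these data known. Named are the members, called list genes (up to 6 a list by p), the 8 and 5 genes most like Saa1 to Saa3 over all libraries and within groups (mean log2 CPM of at least 1, no predicted loci), Amica1, Kcna2 and BC018473. Of the 8 genes, 1 is not reported here. Promoter sequences came from RefSeq and matched all 4 symbols, and transcript lengths and shared 32-base stretches from protein-coding transcripts of GENCODE M21. Same-numbered libraries deviated together little on average (mean r of -0.04 to 0.16 between groups), with single pairs from -0.43 to 0.37. Numbers were therefore not used as pairs.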

Additional observations from a re-analysis of the deposited data

Results flagged for a closer look

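Among 24 combinations of gene or family quantity and group, 6 had 1 library far from the other 5 (gap over range above Dixon's critical value of 0.625). For normally distributed values, chance alone flags about 1 in 20 such groups. The values here were CPM, ratios or percentages and not logs, so this rate may not hold for them. PBS replicate 3 was the highest of its group for Saa1 (49.9 CPM), Saa2 (44.8 CPM) and Saa3 (5.75 CPM). MDA-MB-231 EV replicate 3 was the highest of its group for Saa1 (80.6 CPM) and Saa2 (56.8 CPM), with Saa3 at 4.87 CPM, inside the range of its group. MCF10A/miR-122 EV replicate 1 was the highest of its group for Saa4 (290.3 CPM) and the lowest for the other 3 genes. Saa1 and Saa2 share sequence, so their flags are not independent of each other.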

How the results depend on the processing

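Under the library names' identities, the fold changes between the last 2 groups turned: MDA-MB-231 EV against MCF10A/miR-122 EV gave log2 3.87 for Saa1, 3.93 for Saa2 and 4.04 for Saa3. MCF10A/miR-122 EV against PBS then gave 0.52, 0.32 and -0.0014, and MDA-MB-231 EV against PBS 4.39, 4.25 and 4.04. The called list genes of MDA-MB-231 EV against MCF10A/miR-122 EV (2) became 5 with DESeq2, 1 in a fit of these 12 libraries only, and 1 to 2 with a library left out (1 without MCF10A/miR-122 EV replicate 3 or MDA-MB-231 EV replicate 5). Those of MCF10A EV against PBS (7) became 11 with DESeq2 and ranged from 4 (without PBS replicate 3) to 15 (without PBS replicate 5). Over all genes, the 147 calls of that comparison (51 higher, 96 lower) became 414 with DESeq2, 27 (14 higher, 13 lower) in a fit of its 12 libraries, and 26 and 741 without those 2 PBS libraries. The 35 calls between the last 2 groups became 98, 23, and 13 to 82. The cause was not tested. Under all other alternatives the members' fold changes moved by less than 1 SD, and the within-group correlations kept their side of the threshold. Left-out libraries moved the list counts against PBS to 19 to 27 (main 23) and 12 to 17 (main 18). Replicate numbers were not taken as pairs in the main fit. With the replicate block the 4 comparisons called 2, 6, 23 and 19 list genes, in the order MDA-MB-231 EV against MCF10A/miR-122 EV, then MCF10A EV against PBS, MCF10A/miR-122 EV against PBS and MDA-MB-231 EV against PBS.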
